A study of Mus musculus with 14 samples.

Results

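The genes described here are 40 genes of mitosis, the stage of the cell cycle in which copied chromosomes are separated and the cell divides. They were chosen by name, and a probe was taken as a member's when its accession in the scanner files mapped to that gene in RefSeq. All 40 had a probe on the array, 54 probes in all. Of the 40 genes, 34 gave liver signal well above background on at least 4 of 14 arrays and were tested, among 21976 features tested in the whole series. The livers came from 14 female mice of the B6C3F1 laboratory hybrid, bought at 5 to 6 weeks of age. The groups were 4 controls gavaged with corn oil, 5 mice gavaged with furan at 1 mg/kg body weight and 5 mice gavaged with furan at 8 mg/kg, each for 3 weeks. Every mouse, controls included, also drank the thymidine analogue bromodeoxyuridine (BrdU) over the last 5 days, and livers were taken 4 h after the last gavage. No group without BrdU was analysed here. Furan is a small ring compound formed in heated food, which the liver oxidises to a reactive product. Each value is a log2 ratio of liver RNA, labelled with Cy5, over a universal mouse reference RNA, labelled with Cy3, on one array per mouse.

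Cells build the mitotic proteins late in each cycle. Cyclin B with the kinase Cdk1 starts mitosis, motor proteins and kinetochores attach chromosomes to the spindle, and the anaphase-promoting complex with its activator Cdc20 then triggers their separation. Hepatocytes of an adult liver rarely divide, but they can re-enter the cycle when liver tissue is lost or injured. Many genes of this group are switched on together by the Myb-MuvB complex and Foxm1 and are shut off in resting cells by the related DREAM complex.

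The liver channel rose well above background at 23061 to 29844 of the 55681 probes of an array, and no spot was saturated. The 14 arrays lay on 5 slides. Slides 1 to 4 each held 1 mouse of each group, and slide 5 held 1 mouse at each furan dose and no control. All 6 hepatocyte markers examined, including albumin (Alb) and Hnf4a, were well above background on every array. The submitters call the mice of a group biological replicates. In whole liver, fewer dividing cells and less RNA per dividing cell cannot be told apart.

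Nearly all tested mitosis genes gave less signal in these livers than in the reference RNA. Mean log2 ratios in controls lay below 0 for 33 of the 34 tested members, down to -5.23 for Mki67, so the liver signal was below the reference signal. Liver signal was well above background on all 14 arrays for 23 members and on 4 to 13 arrays for 11. It was well above background on 2 arrays for Ndc80, on 1 array each for Bub1 and Ttk, and on none for Aurkb, Cenpf and Ncapg. The reference signal was well above background on all 14 arrays for 39 of the 40 genes. The exception was Aurkb, whose probe gave such a signal in the reference on 1 array, so that probe carries little information.

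At 8 mg/kg, most mitosis genes had higher means than in controls, and a single gene passed the test. Spc25, a subunit of the Ndc80 complex that ties kinetochores to microtubules, was 1.68-fold higher. Of the 34 members tested, 28 had a difference above 0 (82.4%, against 50.5% of all features), and the median difference was 0.23 on the log2 scale (0.0019 over all features). The differences ranged from -0.13 for Kif4 to 0.97 for Cdc20. Kif11, Melk, Dlgap5 and Kif2c were tested only because their arrays at 8 mg/kg counted towards the 4 required. Of these, Kif11, Melk and Dlgap5 are among the 28. Spc25 was the 1 member called higher and none was called lower, where 2.73% of all features were called higher and 1.36% lower (4.09% in either direction). So the share of members called, 1 of 34, was close to the background. An unadjusted p under 0.05 was found for 12 members (35.3%, against 20.3% of all features), and a difference of at least 1.5-fold for 7 members (20.6%, against 1.55%). These tests were limma fits over all 14 arrays that took slide as a block, with Benjamini-Hochberg adjustment over all features at a threshold of 0.05. When the first mouse at 8 mg/kg was left out, the median difference of the members was 0.07.

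**Figure D1:**
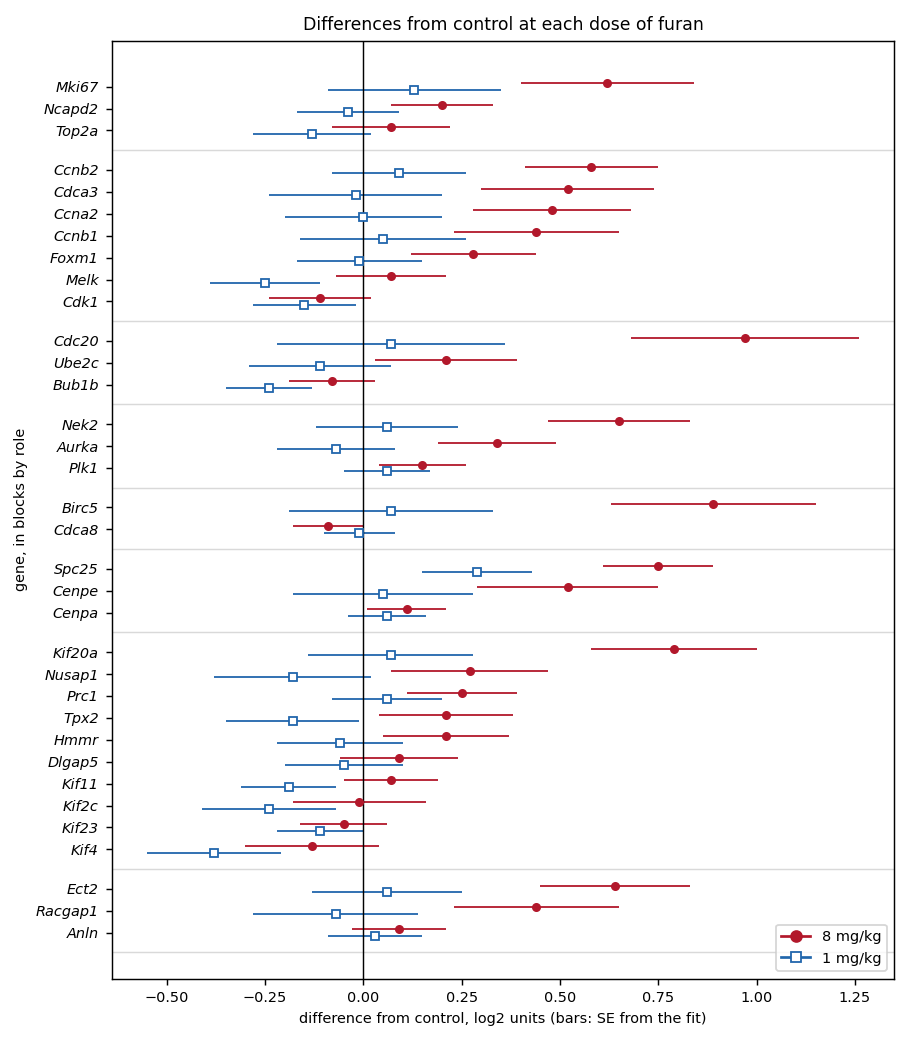
Difference of each of the 34 tested mitosis genes from control, in log2 units, at 8 mg/kg (filled circles) and 1 mg/kg (open squares) of furan, with standard errors from the fit as bars and genes in blocks by role. At 8 mg/kg 28 genes lie right of 0, from -0.13 for Kif4 to 0.97 for Cdc20, and at 1 mg/kg 14 do, from -0.38 for Kif4 to 0.29 for Spc25.

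Spc25 had log2 ratios of -2.04, -2.11, -2.51 and -2.22 in the 4 controls. At 1 mg/kg the values were -1.72, -1.97, -2.05, -1.65 and -2.13, and at 8 mg/kg they were -1.21, -1.72, -1.17, -1.92 and -1.20. All 5 mice at 8 mg/kg lay above all 4 controls, which held for no other member and for 3.46% of all features. Mice 1, 3 and 5 also lay above every mouse at 1 mg/kg. The difference from control was 0.75 ± 0.14 (SE, adjusted p = 0.011). On each of the 4 slides with both groups, the mouse at 8 mg/kg was higher than the control, by 0.83, 0.91, 0.79 and 0.30. The call was lost without the third control (adjusted p = 0.0514) and when the scanner's processed signals were used (adjusted p = 0.0644). Its partner in the same complex, Ndc80, was not tested, since its liver signal was well above background on 2 arrays, both at 8 mg/kg. The other 2 tested centromere members did not pass. Cenpe, a kinetochore motor, differed by 0.52 ± 0.23 (adjusted p = 0.219) and Cenpa, the histone variant that marks centromeres, by 0.11 ± 0.10 (adjusted p = 0.587).

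Cdc20 had the largest difference of any member and did not pass the test. Its log2 ratios were -4.28, -4.08, -4.65 and -4.98 in controls and -4.31, -4.04, -4.61, -3.96 and -4.58 at 1 mg/kg. At 8 mg/kg they were -2.12, -4.20, -2.60, -4.45 and -3.61. Mice 1, 3 and 5 at 8 mg/kg were above all controls, while mice 2 and 4 lay within the range of the controls. The difference from control was 0.97 ± 0.29, a 1.96-fold change (adjusted p = 0.0766). Of the other members that act with the anaphase-promoting complex or its checkpoint, Ube2c, the complex's ubiquitin-conjugating enzyme, differed by 0.21 ± 0.18 (adjusted p = 0.535) and Bub1b, a checkpoint kinase, by -0.08 ± 0.11 (adjusted p = 0.704). The checkpoint kinase Bub1 was not tested.

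**Figure D2:**
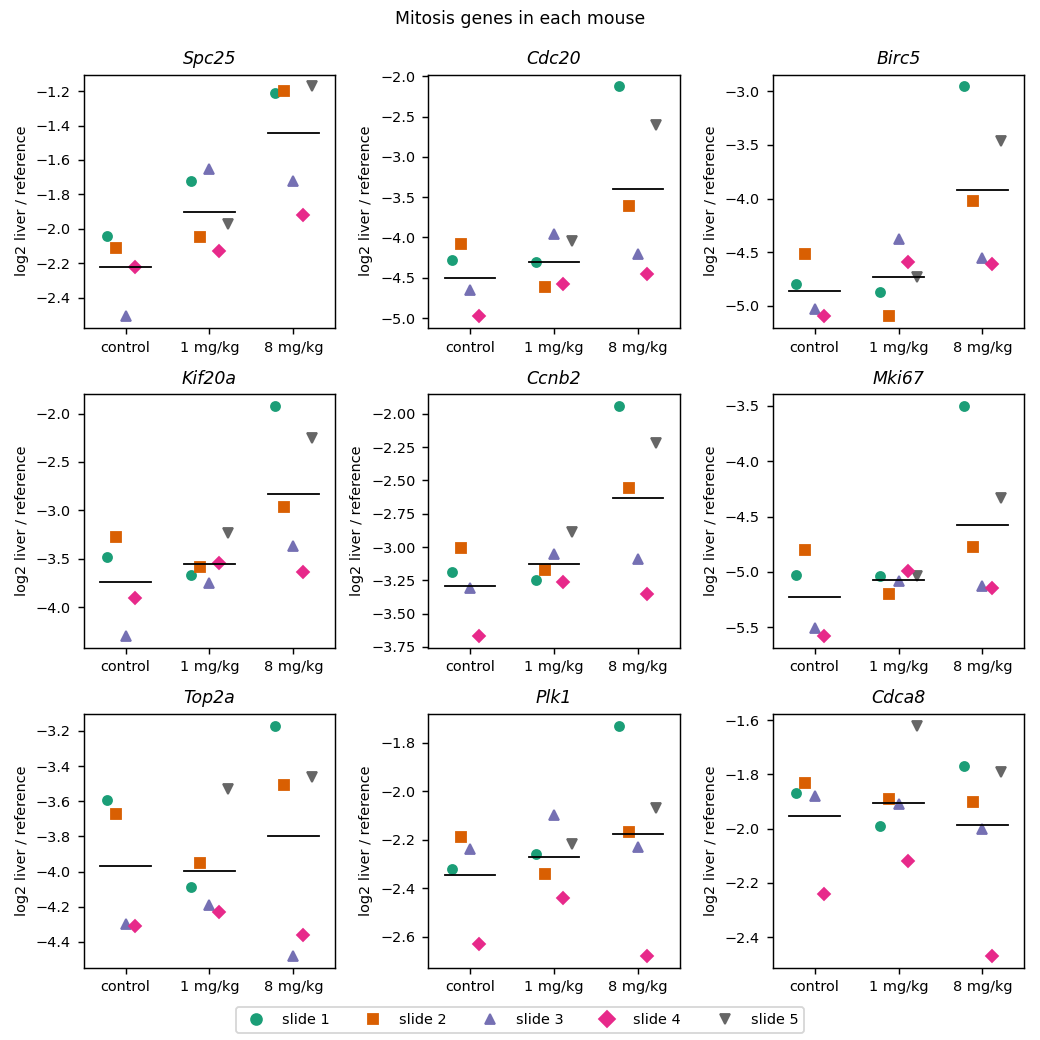
Log2 ratio of liver over reference in each mouse for 9 mitosis genes, by dose, with the slide given by marker and colour and the group mean by a line (4 controls, 5 mice at each dose). For Spc25 all 5 mice at 8 mg/kg lie above the controls, while for Cdc20, Birc5, Kif20a, Ccnb2 and Mki67 mice on slides 1, 2 and 5 lie above the controls and those on slides 3 and 4 among them.

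Birc5 (survivin) and Cdca8 (borealin) belong to the chromosomal passenger complex, which corrects faulty chromosome attachments. Their brightest probes gave unlike values. Birc5 had log2 ratios of -4.80, -4.52, -5.03 and -5.10 in controls and -2.95, -4.55, -3.46, -4.61 and -4.02 at 8 mg/kg. Mice 1, 3 and 5 again exceeded every control, and mice 2 and 4 did not. The difference was 0.89 ± 0.26 (adjusted p = 0.0742). The other 2 Birc5 probes past the filter gave 0.19 and -0.03. Cdca8 had ratios between -2.24 and -1.83 in controls and between -2.47 and -1.77 at 8 mg/kg, with full overlap. Its difference was -0.09 ± 0.09 (adjusted p = 0.628). A second Cdca8 probe, also well above background on all 14 arrays, gave 0.15. Aurkb, the kinase of this complex, was not tested.

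Among the spindle motors and microtubule proteins, 7 of 10 members had a difference above 0 and none passed against control. Kif20a, a kinesin needed for cytokinesis, had log2 ratios of -3.48, -3.27, -4.30 and -3.91 in controls. At 8 mg/kg its values were -1.92, -3.37, -2.25, -3.64 and -2.97. The same 3 mice stood above the controls. The difference was 0.79 ± 0.21, a 1.73-fold change that just missed the threshold (adjusted p = 0.0528). The other 9 members of this group lay between -0.13 and 0.27. They include Nusap1, which binds spindle microtubules near chromosomes (0.27 ± 0.20), Prc1, which bundles the midzone microtubules (0.25 ± 0.14), Tpx2, which activates Aurka on the spindle (0.21 ± 0.17), Hmmr, a spindle assembly protein (0.21 ± 0.16), and Kif23, a motor of the central spindle (-0.05 ± 0.11). Kif4, a chromosome-bound kinesin, had the lowest difference of all members, -0.13 ± 0.17 (adjusted p = 0.716), and its liver signal stood clear of background in 2 of 4 controls. Kif2c, which takes microtubules apart at their ends, differed by -0.01 ± 0.17 and was well above background on 5 arrays in all.

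Kif11, the motor that pushes spindle poles apart, and Dlgap5, a spindle microtubule protein, were well above background on no control array. They were well above background on 4 and 3 arrays at 8 mg/kg, so their controls lay at or below what the array could measure. Their mean log2 ratios were -2.89 in controls and -2.68 at 8 mg/kg for Kif11, and -1.39 and -1.27 for Dlgap5. The groups overlapped in both, and the fitted differences were 0.07 ± 0.12 (adjusted p = 0.792) and 0.09 ± 0.15 (adjusted p = 0.799).

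For the cyclins and the factors that drive entry into mitosis, 6 of 7 members had differences above 0 and none passed. Ccnb2, a B-type cyclin, had log2 ratios of -3.19, -3.01, -3.31 and -3.67 in controls and -1.94, -3.09, -2.22, -3.35 and -2.56 at 8 mg/kg. The values of mice 1, 3 and 5 were again the highest of all 3 groups. Its difference was 0.58 ± 0.17 (adjusted p = 0.0759). Ccna2, cyclin A2, differed by 0.48 ± 0.20 (adjusted p = 0.183), Ccnb1, cyclin B1, by 0.44 ± 0.21 (adjusted p = 0.252) and Cdca3, which promotes mitotic entry, by 0.52 ± 0.22 (adjusted p = 0.198). Melk, a kinase of dividing cells, differed by 0.07 ± 0.14. Foxm1, a transcription factor of late cell cycle genes, had ratios from -3.25 to -2.81 in controls and from -3.27 to -1.88 at 8 mg/kg, a difference of 0.28 ± 0.16 (adjusted p = 0.37). The probe of Cdk1, the kinase partner of the B cyclins, gave ratios from -0.12 to 0.27 in controls and from -0.10 to 0.05 at 8 mg/kg, a difference of -0.11 ± 0.13 (adjusted p = 0.662). That probe was well above background in liver on 6 of 14 arrays.

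Mki67, the source of the proliferation antigen Ki-67, had log2 ratios of -5.03, -4.80, -5.51 and -5.58 in controls. At 1 mg/kg its values were -5.04, -5.04, -5.20, -5.08 and -4.99, and at 8 mg/kg they were -3.50, -5.13, -4.33, -5.14 and -4.77. The first mouse at 8 mg/kg was highest and the third next, while the fifth was barely above the highest control. The difference was 0.62 ± 0.22 (adjusted p = 0.122), and a second Mki67 probe gave 0.73. Top2a, the DNA topoisomerase that untangles sister chromosomes, had ratios from -4.31 to -3.59 in controls and from -4.48 to -3.17 at 8 mg/kg. Its difference was 0.07 ± 0.15 (adjusted p = 0.834). Ncapd2, a condensin subunit, differed by 0.20 ± 0.13.

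Of the mitotic kinases, Nek2, which separates centrosomes, had log2 ratios of -2.87, -2.57, -3.47 and -3.01 in controls and -1.41, -2.82, -1.96, -2.78 and -2.26 at 8 mg/kg. Its liver signal stood clear of background in 2 of 4 controls and in all 5 mice at 8 mg/kg. The difference was 0.65 ± 0.18 (adjusted p = 0.0674). Aurka, the spindle pole kinase, differed by 0.34 ± 0.15 (adjusted p = 0.226) and Plk1, a kinase active throughout mitosis, by 0.15 ± 0.11 (adjusted p = 0.481). Among the 3 cytokinesis members, Ect2, which activates RhoA at the division plane, had ratios of -3.38, -3.29, -3.57 and -3.53 in controls and -1.99, -2.93, -2.45, -3.49 and -2.84 at 8 mg/kg. Here 4 of the 5 mice, all but mouse 4, were above every control, and the difference was 0.64 ± 0.19 (adjusted p = 0.0742). Racgap1, its partner, differed by 0.44 ± 0.21 (adjusted p = 0.259), and Anln, the furrow scaffold anillin, by 0.09 ± 0.12 (adjusted p = 0.753).

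Nearly all members set the same 3 of the 5 mice at 8 mg/kg above the others. In 32 of the 34 members, mice 1, 3 and 5 held the 3 highest values of that group, which was true of 13.2% of all features. At least 3 of the 5 mice exceeded all controls in 21 members (61.8%, against 17.6% of all features). These include Melk, which was tested only because its arrays at 8 mg/kg were counted. Over the 23 members measured on all 14 arrays, the mean deviation from each gene's mean over all arrays was 1.00 in mouse 1, 0.66 in mouse 3 and 0.26 in mouse 5, but -0.18 in mouse 2 and -0.36 in mouse 4. All 23 members were above their own mean in each of mice 1, 3 and 5, against 3 members in mouse 2 and none in mouse 4. In controls 1 to 4 the mean deviations were -0.01, 0.06, -0.43 and -0.42, and at 1 mg/kg they ran from -0.25 to 0.12. The split at 8 mg/kg also followed the slides. Mice 1, 3 and 5 lay on slides 1, 5 and 2. Mice 2 and 4 lay on slides 3 and 4, the slides of the lower controls 3 and 4. At 1 mg/kg the mean deviations were -0.14, -0.20, -0.09, -0.25 and 0.12 on slides 1 to 5. There the mouse on slide 5 was highest, but the mouse on slide 3 lay above those on slides 1 and 2. Within a dose, mouse and slide cannot be told apart. Mouse 1 at 8 mg/kg had the highest value of all 14 arrays in 27 of the 34 members. These mice were not assigned to groups by these values, and every test above used all 5.

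**Figure D3:**
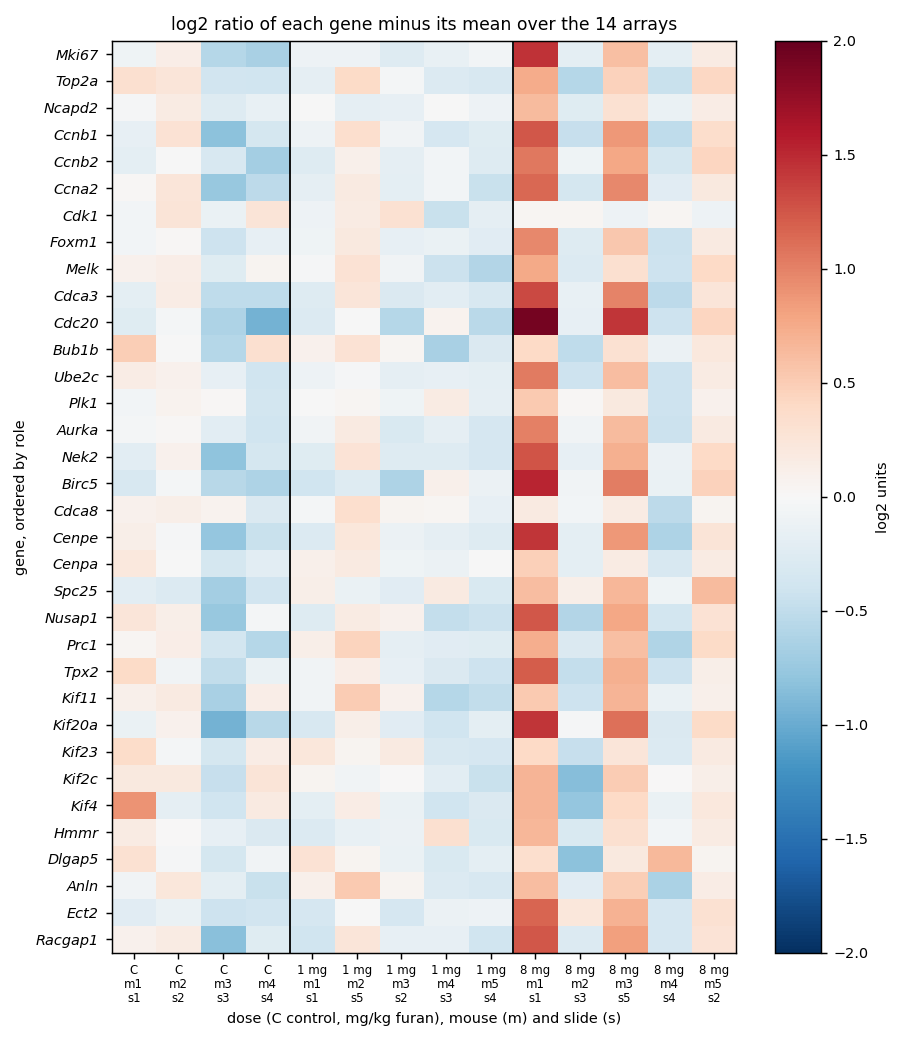
Log2 ratio of each of the 34 tested mitosis genes minus its mean over the 14 arrays (colour, log2 units), with mice in columns by dose and genes in rows by role. Mice 1, 3 and 5 at 8 mg/kg are above the mean in nearly every row, with mean deviations of 1.00, 0.66 and 0.26 over the 23 genes measured on all arrays, and mice 2 and 4 are below it in most rows.

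Other measures differed between the same mice. The number of probes well above background was 25205, 23759 and 25714 in mice 1, 3 and 5 at 8 mg/kg and 29497 and 29757 in mice 2 and 4. Against the control of the same slide, the mouse at 8 mg/kg had 25205 and 23925 such probes on slide 1, 25714 and 27175 on slide 2, 29497 and 27259 on slide 3, and 29757 and 24987 on slide 4. The summed sample-channel signal of the 6 cholangiocyte markers was 2530, 2970 and 3130 in mice 1, 3 and 5 and 1820 and 1770 in mice 2 and 4. It was 2090 to 2900 in controls, with 2 of 6 markers well above background on all arrays and Cftr on none. The sum of 6 B and plasma cell markers was 2960, 3470 and 3730 in mice 1, 3 and 5 and 2770 and 2010 in mice 2 and 4, against 2290 to 3260 in controls. The sum of the 6 hepatocyte markers was also higher in mice 1, 3 and 5 (1490000 to 1840000) than in mice 2 and 4 (1260000 and 1350000), against 1400000 to 1830000 in controls. At 1 mg/kg these sums were 2300 to 3570 for cholangiocyte, 2580 to 3780 for B and plasma cell and 1250000 to 1780000 for hepatocyte markers. The sum of the 5 sinusoidal endothelium markers, all well above background on every array, ran the other way, at 20300, 20300 and 17100 in mice 1, 3 and 5 and 23600 and 21900 in mice 2 and 4. It was 22400 to 24200 in controls and 21000 to 28700 at 1 mg/kg. For the Kupffer cell, T and NK cell, erythroid, neutrophil and stellate cell markers, the sums of mice 1, 3 and 5 overlapped those of mice 2 and 4. None of the 9 marker lists had a gene called against control, and between the doses the stellate cell marker Lrat fell by 0.64 ± 0.15 (adjusted p = 0.0291). The part of these measures in the result was not tested.

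Within slides the size of the difference varied widely. The median over the 34 members of the mouse at 8 mg/kg minus the control was 0.82 on slide 1, 0.16 on slide 2, 0.16 on slide 3 and -0.05 on slide 4. The members above 0 numbered 32, 27, 24 and 12, against 54.1%, 51.1%, 45.5% and 55.3% of all features. Slide 3 held the control with the lowest values, and its mouse at 8 mg/kg was one of the lower ones of that dose. A total of 8 members were higher on all 4 slides: Mki67, Ccnb2, Cdc20, Birc5, Kif20a, Nek2, Ect2 and Spc25. That is 23.5% of the members, against 14.4% of all features higher on 4 of 4 slides, and no member was lower on all 4. On slide 4 the sign of the median changed with the scaling, to 0.45 with median centring of each array in place of loess and to 0.19 with the sample channel alone.

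**Figure D4:**
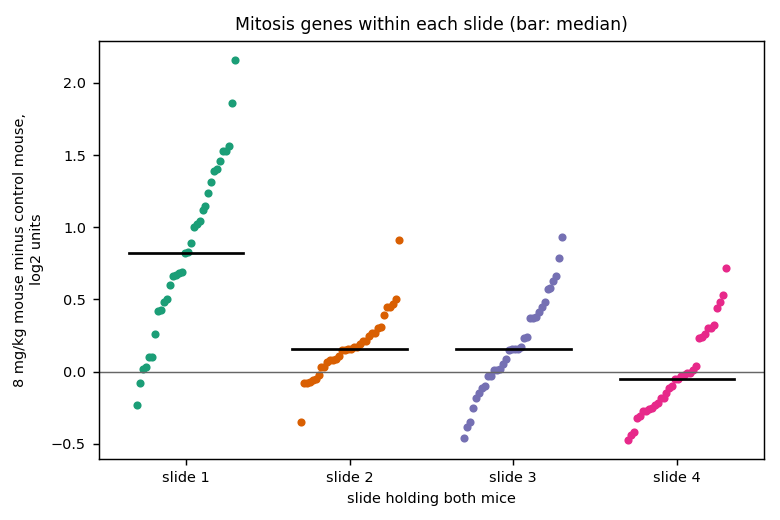
Log2 difference between the mouse at 8 mg/kg and the control mouse on each of the 4 slides that held both, 1 point per tested mitosis gene in ascending order, with the median as a bar. The medians are 0.82, 0.16, 0.16 and -0.05 on slides 1 to 4, and slide 1 reaches 2.16 for Cdc20.

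The number of members that passed differed between scalings. With median centring, 14 members were called higher at 8 mg/kg against control, where 5.92% of all features were (6.15% in either direction), among them Spc25, Cdc20, Birc5, Kif20a, Nek2, Ect2, Ccnb2 and Mki67. Under that scaling the median of all features moved to 0.14 and the median of the members was 0.44, and 96.4% of all called features were higher, against 66.8% with loess. With the sample channel alone 52.2% were higher, and Spc25 and Nek2 were the 2 members called, where 3.16% of all features were called higher (6.05% in either direction).

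Because the members moved together between mice, their promoters were searched for the letters of the elements bound by the complexes named above. The cell cycle genes homology region (CHR) is bound by MuvB complexes and has the core TTTGAA or, as a variant, TTCGAA. The CCAAT box is bound by NF-Y. RefSeq promoter windows of build GRCm38.p6, from 250 bases before to 50 bases after the annotated start, were found for 34 of the 40 genes, and both strands were searched. The genes without an entry were Aurkb, Ccna2, Dlgap5, Foxm1, Kif20a and Tpx2. The stretches shown next are the last 100 bases before the start, written along the gene's strand, of the called member (Spc25), of members with large and small differences (Cdc20, Ccnb2, Ube2c, Kif11) and of 2 proliferation genes with differences near 0 (Top2a, Cdk1). Capitals mark CHR cores and CCAAT boxes on either strand, so ATTGG is a CCAAT box and TTCAAA a CHR core on the opposite strand.
Spc25 (chr2:69206214-69206313, minus strand): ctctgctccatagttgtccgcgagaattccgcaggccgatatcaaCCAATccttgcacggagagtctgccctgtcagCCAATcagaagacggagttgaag
Cdc20 (chr4:118437344-118437443, minus strand): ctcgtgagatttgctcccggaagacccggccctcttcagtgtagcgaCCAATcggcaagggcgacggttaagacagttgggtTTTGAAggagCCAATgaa
Ccnb2 (chr9:70421555-70421654, minus strand): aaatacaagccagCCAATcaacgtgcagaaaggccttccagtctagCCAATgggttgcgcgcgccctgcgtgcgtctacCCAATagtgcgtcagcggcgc
Ube2c (chr2:164769829-164769928, plus strand): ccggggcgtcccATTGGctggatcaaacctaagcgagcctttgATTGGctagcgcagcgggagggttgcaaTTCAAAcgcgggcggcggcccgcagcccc
Kif11 (chr19:37376282-37376381, plus strand): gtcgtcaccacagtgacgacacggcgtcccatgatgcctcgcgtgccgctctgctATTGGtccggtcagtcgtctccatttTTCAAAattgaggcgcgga
Top2a (chr11:99024190-99024289, minus strand): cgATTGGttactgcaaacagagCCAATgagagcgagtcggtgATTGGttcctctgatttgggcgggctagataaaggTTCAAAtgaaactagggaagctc
Cdk1 (chr10:69352913-69353012, minus strand): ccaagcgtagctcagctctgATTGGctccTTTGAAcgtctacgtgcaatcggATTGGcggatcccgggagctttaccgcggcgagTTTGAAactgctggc
The CCAAT boxes of Ccnb2 and the paired CCAAT and CHR letters of Cdc20, Ube2c, Kif11, Top2a and Cdk1 lie within these last 100 bases. The CHR core of Spc25 lies at base 25 after the start and is outside the stretch shown. Ccnb2 has CHR cores at bases -167 and 5 from the start, also outside its stretch. Cdk1, Top2a and Cdc20 all carry both elements here, and their measured differences at 8 mg/kg against control were -0.11, 0.07 and 0.97. The Cdk1 probe was well above background in liver on 6 of 14 arrays, so its value says little about that gene. Whether the elements go with the differences was not tested.

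Over the 34 promoter windows, TTTGAA was present in 27 (79.4%), against 18.0% of the windows of 26991 other genes. A CCAAT box was present in 28 (82.4%, against 37.9%), and at least 2 of them in 20 (58.8%, against 12.1%). A CHR core of either kind together with a CCAAT box was found in 25 (73.5%, against 7.62%), and a CHR core within 50 bases of the start likewise in 25 (73.5%, against 5.21%). Neither element was found in 3 members, Birc5, Nusap1 and Melk. The variant TTCGAA, with or without TTTGAA, was present in 3 (8.82%, against 1.56%). These are letter matches and not measured binding.

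**Figure D5:**
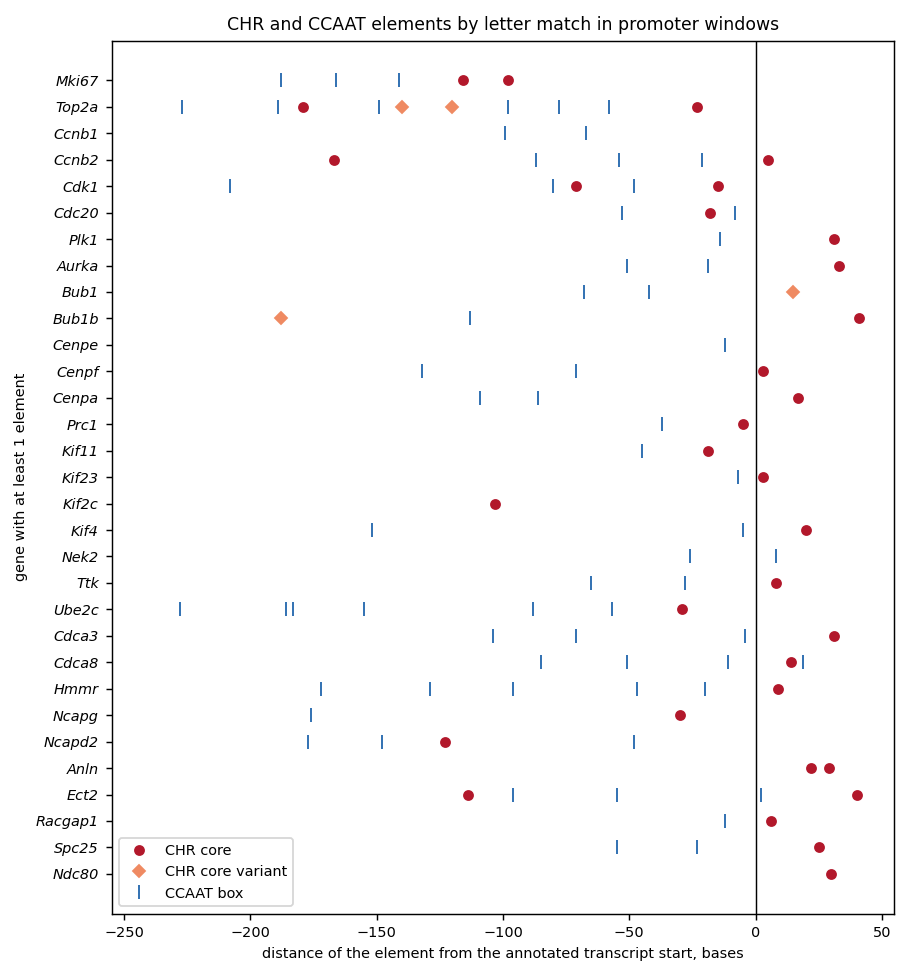
Position of CHR core letters (circles, with the variant core as diamonds) and CCAAT boxes (bars) in the promoter windows of the 31 mitosis genes with at least 1 match, in bases from the annotated start. CHR cores lie within 50 bases of the start in 25 genes, and CCAAT boxes lie mostly before it.

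At 1 mg/kg no mitosis gene passed the test, and none of all 21976 features did (0%). The differences from control lay above 0 in 14 members and below 0 in 20, with a median of -0.02 (0.029 over all features) and a range from -0.38 to 0.29. An unadjusted p under 0.05 was found for 2 members, Kif4 and Bub1b (5.88%, against 6.9% or 1516 of all features), both with lower means than controls. Kif4 had ratios of -1.53, -2.61, -2.84 and -2.26 in controls and -2.63, -2.29, -2.57, -2.83 and -2.73 at 1 mg/kg, a difference of -0.38 ± 0.17 (adjusted p = 0.702). The first control was the one high value and the groups overlapped. Bub1b differed by -0.24 ± 0.11 (adjusted p = 0.702). Spc25 had the highest difference, 0.29 ± 0.14 (adjusted p = 0.724), with 3 of 5 mice above all controls. Within slides 1 to 4 the median over members was -0.11, -0.18, 0.25 and 0.09.

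Between the furan doses, 33 of the 34 members were higher at 8 than at 1 mg/kg (97.1%, against 43.6% of all features), with a median of 0.32 (-0.023 over all features). Kif20a was the 1 member called higher and none was called lower, where 2.41% of all features were called higher and 2.88% lower (5.28% in all). Its ratios were -3.67, -3.23, -3.58, -3.75 and -3.54 at 1 mg/kg, and mice 1, 3 and 5 at 8 mg/kg lay above all of them. The difference was 0.72 ± 0.20 (adjusted p = 0.0477), just inside the threshold, and the call was kept in 7 of 27 alternatives, with adjusted p from 0.0174 to 0.286. Leaving out mouse 1 at 8 mg/kg, it was 0.49 (adjusted p = 0.123). Spc25 (0.46 ± 0.13, adjusted p = 0.0563), Nek2 (0.58 ± 0.17, adjusted p = 0.0624) and Cdc20 (0.90 ± 0.26, adjusted p = 0.0643) came next. An unadjusted p under 0.05 was found for 17 members (50%, against 21.4% of all features). Kif11, Melk, Dlgap5 and Kif2c are among the 33, and Kif11 and Melk also among the 17. Without their arrays at 8 mg/kg they would not have been tested, so their part in these counts is not independent of that group. The exception in direction was Cdca8, at -0.08 ± 0.08 with its brightest probe, while a second Cdca8 probe gave 0.30. Within slides the median over members was 0.99, 0.37, -0.10, -0.03 and 0.47 on slides 1 to 5. This comparison and that with control share the mice at 8 mg/kg.

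The spread between mice was widest at 8 mg/kg. The median SD of a member within a dose was 0.31 in controls, 0.23 at 1 mg/kg and 0.57 at 8 mg/kg, whereas over all features it was 0.16, 0.17 and 0.17. The SD was larger at 8 mg/kg than in controls in 31 of 34 members (91.2%, against 55.3% of all features) and larger than at 1 mg/kg in 33 (97.1%, against 48.3%). For Cdc20 the SD was 0.40 in controls, 0.30 at 1 mg/kg and 1.01 at 8 mg/kg, and for Mki67 it was 0.38, 0.08 and 0.68. After slide and dose means were taken out, the median root mean square of the residuals was 0.16 in controls, 0.23 at 1 mg/kg and 0.26 at 8 mg/kg. It was larger at 8 mg/kg than in controls in 30 members (88.2%, against 56.4%) and larger than at 1 mg/kg in 25 (73.5%, against 55.7%). At 1 mg/kg it was likewise larger than in controls in 29 members (85.3%, against 51.1%), so this excess over controls was not particular to 8 mg/kg. No test was made of these spreads, and removing slide means shrinks the residuals of slides with few arrays.

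The members varied as a block. With slide means taken out, the median correlation over the 253 pairs of the 23 members measured on all arrays was 0.84 across the 14 arrays, and 91.3% of pairs were above 0.5. With dose means taken out as well it was again 0.84. The mean used next held 28 members, those with liver signal clear of background in every mouse of 1 group or more, of which 2 (Melk and Nusap1) entered through the group at 8 mg/kg alone. Cdca3 followed the mean of the other members most closely (r = 0.99), with Ccnb1 (0.98), Foxm1 (0.97) and Ect2 (0.97) behind it. The members least like the others were Bub1b (0.18) and Cdca8 (0.22), and Spc25, the called gene, was at 0.72. A correlation above 0.8 with the members' mean was found for 22 of the 28 members and for 0.898% of other features. The genes outside the list most like the mean were Cdkn3 (0.99), a phosphatase acting on Cdk proteins, Cdca5 (0.98), which holds sister chromatids together, Kif22 (0.98), Shcbp1 (0.98), Sgo1 (0.96), Uhrf1 (0.96), Hmgb2 (0.95), Mad2l1 (0.95), Tipin (0.94) and Tacc3 (0.94). All these values share arrays, slides and one reference and are given as a description.

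Other genes of the cell cycle were counted from lists chosen by function, to be read against the 2.73% of all features called higher at 8 mg/kg against control. Of 47 tested further mitosis genes, 2 rose at 8 mg/kg against control and none fell, a share near that background, and the median was 0.07. They were Mad2l1, a checkpoint protein that restrains Cdc20 (0.60 ± 0.14, adjusted p = 0.0307), and Smc4, a condensin core subunit (0.44 ± 0.11, adjusted p = 0.0354). Of 16 tested subunits and regulators of the anaphase-promoting complex, Anapc5 alone rose (0.37 ± 0.10, adjusted p = 0.0481). None of 21 tested DREAM, MuvB and E2F regulators passed, and the median of that list was 0.03. Of 17 G1 cyclins, kinases and inhibitors, 3 rose and none fell. Cdkn1a, the inhibitor p21, rose by 2.19 ± 0.17 (4.57-fold, adjusted p = 2.26e-05), Myc by 1.13 ± 0.17 (adjusted p = 0.00213) and Ccnd1, cyclin D1, by 0.66 ± 0.13 (adjusted p = 0.0159). Of 40 replication and S phase genes, 4 rose and none fell: Mcm6, a helicase subunit (0.87 ± 0.20, adjusted p = 0.0278), Prim1, a primase subunit (0.69 ± 0.13, adjusted p = 0.012), Cdt1, an origin licensing factor (0.41 ± 0.11, adjusted p = 0.0491), and Pcna, the polymerase clamp (0.34 ± 0.09, adjusted p = 0.0483). At 1 mg/kg no gene of these 5 lists passed. Between the doses, Mad2l1, Smc4, Cenph and Aspm of the further mitosis genes rose, where 2.41% of all features were called higher. Of the G1 list Cdkn1a (2.04 ± 0.16, adjusted p = 2.56e-05), Myc, Ccnd1 and the inhibitor Cdkn1c rose, and of the S phase list Prim1, Mcm6, Mcm7 and Fen1. Cenph and Aspm were each well above background on 1 control array and on 5 arrays at 8 mg/kg. Their arrays at 8 mg/kg alone were enough for them to be tested. No gene of the 5 lists fell between the doses, and none of the anaphase-promoting complex or DREAM lists passed.

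Probes of one gene did not always give the same value. Of the 40 members, 11 had several probes on the array and 8 had several past the filter, and the brightest stood for the gene. At 8 mg/kg against control the probes of Ccnb1 gave 0.44, 0.21 and 0.03, those of Racgap1 0.44 and 0.19, and those of Ube2c 0.21 and 0.41. Those of Cdca8 gave -0.09 and 0.15. Those of Tpx2 gave 0.21 and -0.18, the second being well above background on 4 of 14 arrays. The 3 Cdk1 probes gave -0.11, 0 and -0.21, but were well above background in liver on 6, 4 and 0 of 14 arrays. The second was so on no control array and the third did not pass the filter. The 23 members measured on all 14 arrays had a median difference of 0.34, with 22 above 0. The 11 members measured on 4 to 13 arrays had a median of 0.07, with 6 above 0. Values of these dim members depended on the processing. With the scanner's processed signals Dlgap5 was at 1.31, Ccnb1 at 1.22, Bub1b at 0.68 and Cdk1 at -0.5, and none was called. Their values in the main fit were 0.09, 0.44, -0.08 and -0.11. A main value near 0 is therefore not a measure of little change for such members.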

How the data were processed

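The members and the gene lists were chosen with earlier results of these data known. The deposited scanner files hold, per the file headers, spot and local background intensities of both channels read with Feature Extraction 10.7.3.1. A second deposited table holds normalized linear ratios, a unit read from the values. Their log2 had correlations of 0.992 to 0.995 with the ratios obtained here, their column medians were 0.9765 to 0.9897, and how they were normalized stays unknown. Direction was liver (Cy5) over reference (Cy3), per the labels.

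Median intensities were background-corrected with limma's normexp (offset 50) and normalized by loess within each array. Control and outlier-flagged spots were left out and repeat spots averaged to 55681 probes. Probes entered the tests when the liver channel was well above background on at least 4 arrays (28867 probes), and the brightest probe stood for a gene, leaving 21976 features. Probes were named by accession from the RefSeq table of GRCm38.p6, which named 26413 probes. The number of arrays limits the precision. Groups came from the sample titles. The model (limma 3.58.1 in R 4.3.3, lmFit with eBayes) held all 14 arrays, with slide entered as a fixed term, and was tested first on simulated data. Named members were those called, those with the smallest p, those with the highest or lowest signal, the 3 lowest differences and role leaders. The alternatives changed the slide term, background, scaling, dim-probe filter and probe rule, or left out a slide or a mouse. Same-numbered mice of different groups had correlations of their deviations from -0.42 to 0.25, so the numbers were not taken as pairs.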

Additional observations from a re-analysis of the deposited data

Results flagged for a closer look

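Groups of 4 or 5 mice were examined gene by gene and for the mean of the members, 105 groups in all. By Dixon's test, which marks about 1 in 20 groups by chance, 5 held a value far from the others. Mouse 2 at 1 mg/kg was the highest of its group for Cdca3, at -2.74 against -3.19 for the next mouse, and for Nek2, at -2.39 against -2.91. This mouse lay on slide 5, which held no control. The third control was the lowest control for Kif11, at -3.48 against -2.73, and for Kif2c, at -3.06 against -2.40, and neither probe was well above background on most control arrays. The fourth control was the lowest control for Cdca8, at -2.24 against -1.88. The group at 8 mg/kg, with the widest spread, held none of these values.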

How the results depend on the processing

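A total of 27 alternatives were run. Of 616 gene values recomputed, 546 kept their direction and their side of the threshold, 23 lost a call, 22 gained one and 25 changed sign. The number of arrays, and for dim members a signal near background, limit the precision. The causes of the changes were not tested.

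Spc25 at 8 mg/kg against control lay between 0.65 and 0.95 and was called in 24 of 27 alternatives, with adjusted p from 0.0011 to 0.0992. With the replicate block in place of the slide, its adjusted p was 0.0992, 0 members were called against control and 0 between the doses, and 122 features were called at 8 mg/kg. The median difference of the members was 0.71 with the scanner's processed signals and between 0.20 and 0.44 in the other alternatives that kept every mouse, and leaving out 1 mouse at a time gave 0.07 to 0.36. Within slides, the processed signals gave medians of 1.36 on slide 1 and 0.36 on slide 4, where median centring gave 0.45 and the sample channel alone 0.19.

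Against the 898 features called at 8 mg/kg, 273 were called with no slide term, 304 with only the arrays compared, 389 with processed signals, 1351 with median centring and 401 without slide 3. Leaving out 1 mouse gave 315 (without mouse 1 at 8 mg/kg) to 871. Members called against control numbered 0 with processed signals, 14 with median centring and 2 with the sample channel alone, and 0 (without control 3) to 4 (without mouse 2 or mouse 4 at 8 mg/kg) when 1 mouse was left out. Between the doses, 0 members were called with no slide term, slide as a random block, only the arrays compared, no background correction, processed signals, no filter on dim probes and the mean of a gene's probes. There were 5 with median centring and 5 without slide 3 (Birc5, Ccna2, Cdc20, Hmmr and Spc25), and 0 to 7 (without mouse 4 at 8 mg/kg) when 1 mouse was left out, with 6 without mouse 4 at 1 mg/kg. At 1 mg/kg against control every alternative called 0 members.

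Only members selected by call, p, signal, lowest difference or role were recomputed gene by gene. Among them, 7 uncalled members changed sign at 8 mg/kg against control, and the remaining tested members were not checked. With processed signals, Bub1b was at 0.68, Kif2c at 0.58 and Kif4 at 0.20. With median centring, Bub1b was at 0.10, Cdca8 at 0.10, Kif2c at 0.16 and Kif4 at 0.05, and with the sample channel alone Bub1b was at 0.17, Kif2c at 0.21 and Kif4 at 0.08. Cdca8 was at 0.03 as the mean of its probes. Kif2c was at 0.05 with no slide term, 0.02 with slide as a random block, 0.08 with the replicate block and 0.08 without slide 3. Leaving out 1 mouse gave -0.18 to 0.03 for Bub1b, -0.10 to 0.26 for Dlgap5, -0.03 to 0.20 for Kif11, -0.14 to 0.17 for Kif2c, -0.28 to 0.01 for Kif4 and -0.08 to 0.18 for Top2a.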
